A study of Homo sapiens with 23 samples.

Results

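The Toll-like receptor genes TLR1, TLR2, TLR3, TLR4, TLR5 and TLR6 were examined together with LY96, the adaptor MYD88 and the kinase genes IRAK2 and IRAK3. They were taken by NCBI Gene ID and make up 10 of the 21658 genes in the expression table, and all 10 had a row. RNA had been sequenced in 23 libraries from 4 human ovarian cancer cell lines, OV-90, Kuramochi, OVSAHO and EFO-21, each as parental cells and as a derivative resistant to prexasertib, an inhibitor of the checkpoint kinase CHK1. Each of the 8 groups had 3 libraries labelled as biological replicates, except parental OV-90, which had 2. The resistant cells had been selected by raising the drug concentration over a long period, and the labels give 1 resistant derivative per line, so that resistance and anything else that set that derivative apart cannot be told apart. The labels do not say whether drug was present when RNA was taken, and name no other treatment.

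Toll-like receptors are sensors of microbial molecules and of molecules released by damaged cells. TLR1 and TLR6 pair with TLR2 to bind lipoproteins, TLR3 binds double-stranded RNA inside endosomes, TLR5 binds bacterial flagellin, and TLR4 binds lipopolysaccharide with the help of MD-2, the product of LY96. MYD88 carries the signal from all of these receptors except TLR3, through the kinases IRAK4, IRAK1 and IRAK2, to NF-kappaB and MAP kinases, while TLR3 and, from endosomes, TLR4 use the adaptor TRIF (gene TICAM1) to reach IRF3 and interferon. IRAK3 encodes IRAK-M, which restrains the pathway and is best known from macrophages. Epithelial cells and their tumours can express several of these receptors.

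The places of the genes, and what their values rest on, differed. On GRCh37, TLR1 (chr4:38792298-38858438) and TLR6 (chr4:38824518-38858438) overlap on the minus strand in the GENCODE annotation, and their main transcripts share an identical stretch of 218 bases, longer than the 150-base reads. Of the windows of 150 bases in the TLR1 transcript, 69 also occurred in TLR6, so a read from there could not by itself be assigned to either gene. Reads were paired, and how many were affected was not examined. No other pair of these receptors shared more than 17 bases. TLR2 (chr4:154605222-154627412) and TLR3 (chr4:186990065-187009227) lie on the plus strand of the same chromosome, TLR4 at chr9:120466453-120487013 on the plus strand and TLR5 at chr1:223282746-223316590 on the minus strand. The other genes are all on plus strands, LY96 at chr8:74903627-74941314, MYD88 at chr3:38180043-38184515, IRAK2 at chr3:10206603-10285429 and IRAK3 at chr12:66582975-66648402. The values of TLR2 and TLR4 came from 1 measured exon or junction each, those of TLR1, TLR6 and IRAK3 from 2, of TLR5 from 4, of TLR3 from 9, of LY96 from 11, of MYD88 from 14 and of IRAK2 from 28. IRAK3 overlaps an antisense RNA gene, and whether reads were counted by strand is not given in the sources used here.

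The values were log2 values that the authors had made from exon and junction reads and quantile normalised, so that every library had a median of 6.01. Libraries are named here by the number in their column heading, 2 to 24, because the headings carry no replicate number. A value at or below the 10th percentile of its own library, which lay between 1.70 and 1.87, is called at the bottom, where a gene could not be told from one with almost no reads. Of the 230 values of these genes, 29 were at the bottom, and 11 of the 80 group means were above the library median. The table does not say that values are per length of transcript, so levels were compared between libraries and not between genes. Depth is unknown, because no counts were used here. Libraries of a group correlated at 0.952 to 0.988 (Pearson's r across genes, which are not independent replicates), the lowest being the parental OV-90 pair, and all 23 libraries matched a library of their own group best.

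Promoters were read for 8 of the 10 genes, because TLR1 had no entry used here and LY96 was left out although its change in Kuramochi was large. Among these 8, sequences are shown for the genes with the largest changes between resistant and parental cells and for TLR3 and MYD88, which shared a motif. The sequences are RefSeq's on GRCh38.p14 and run 5′ to 3′ along the gene for the 250 bases before its start, with 20 bases after the start for TLR3. Capitals mark every match, on either strand, to the core of the interferon-stimulated response element (2 runs of GAAA with any 2 bases between them), the GC box GGGCGG or the E-box CACGTG.
TLR3 (chr4:186068906-186069175, plus strand): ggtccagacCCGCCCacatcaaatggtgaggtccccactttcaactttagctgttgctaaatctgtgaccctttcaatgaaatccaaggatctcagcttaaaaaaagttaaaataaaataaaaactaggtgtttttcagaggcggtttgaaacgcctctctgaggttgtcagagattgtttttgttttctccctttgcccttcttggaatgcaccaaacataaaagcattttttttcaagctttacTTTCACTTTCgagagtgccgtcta
MYD88 (chr3:38138411-38138660, plus strand): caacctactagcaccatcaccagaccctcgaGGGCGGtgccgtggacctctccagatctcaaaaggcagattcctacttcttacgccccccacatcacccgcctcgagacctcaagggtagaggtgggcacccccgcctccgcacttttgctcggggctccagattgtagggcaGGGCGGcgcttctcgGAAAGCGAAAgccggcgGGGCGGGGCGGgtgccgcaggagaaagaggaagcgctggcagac
TLR4 (chr9:117704153-117704402, plus strand): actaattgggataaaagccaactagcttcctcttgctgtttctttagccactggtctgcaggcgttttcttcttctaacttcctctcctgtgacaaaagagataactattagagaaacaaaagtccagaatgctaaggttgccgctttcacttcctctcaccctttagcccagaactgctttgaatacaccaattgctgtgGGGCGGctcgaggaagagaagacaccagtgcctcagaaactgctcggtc
TLR6 (chr4:38856818-38857067, minus strand): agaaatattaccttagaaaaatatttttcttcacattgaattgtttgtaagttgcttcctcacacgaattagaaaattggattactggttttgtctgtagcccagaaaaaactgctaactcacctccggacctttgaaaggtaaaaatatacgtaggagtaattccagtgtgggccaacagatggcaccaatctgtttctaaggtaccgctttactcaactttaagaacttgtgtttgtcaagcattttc
IRAK2 (chr3:10164669-10164918, plus strand): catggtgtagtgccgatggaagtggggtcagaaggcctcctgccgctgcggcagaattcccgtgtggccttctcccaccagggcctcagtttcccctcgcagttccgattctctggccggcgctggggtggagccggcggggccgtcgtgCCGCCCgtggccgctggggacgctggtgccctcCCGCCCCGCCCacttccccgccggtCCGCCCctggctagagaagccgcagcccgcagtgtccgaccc
IRAK3 (chr12:66188964-66189213, plus strand): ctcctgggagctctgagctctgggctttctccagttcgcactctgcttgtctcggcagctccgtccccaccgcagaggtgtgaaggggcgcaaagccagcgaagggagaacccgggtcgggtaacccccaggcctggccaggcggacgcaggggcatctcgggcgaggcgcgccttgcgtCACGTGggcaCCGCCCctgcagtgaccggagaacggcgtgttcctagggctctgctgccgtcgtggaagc

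Over the full windows of 300 bases, the response element core was found in TLR3, from position -4 relative to the start, and in MYD88, from position -61, and in none of the other 6 promoters. It occurred in 3.57% of all 35116 promoters of that length. At least 1 GC box was found in 7 of the 8 promoters, all except TLR6, against 45.0% of all promoters. The E-box was found in TLR2 and IRAK3 (7.26% of all promoters). The AP-1 motif TGANTCA (7.71% of all promoters), the NF-kappaB consensus (5.91%), the palindromic cyclic AMP response element (1.85%) and TATAAA (11.5%) had no match in any of the 8. The promoters of TLR3 and TLR6 held 5 CpG dinucleotides each and that of TLR4 held 8, against a median of 14 over all promoters. The others held 25 in MYD88, 27 in TLR5 and IRAK3, 31 in IRAK2 and 33 in TLR2. These are descriptions of the letters and say nothing of which factor is bound in these cells.

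**Figure D1:**
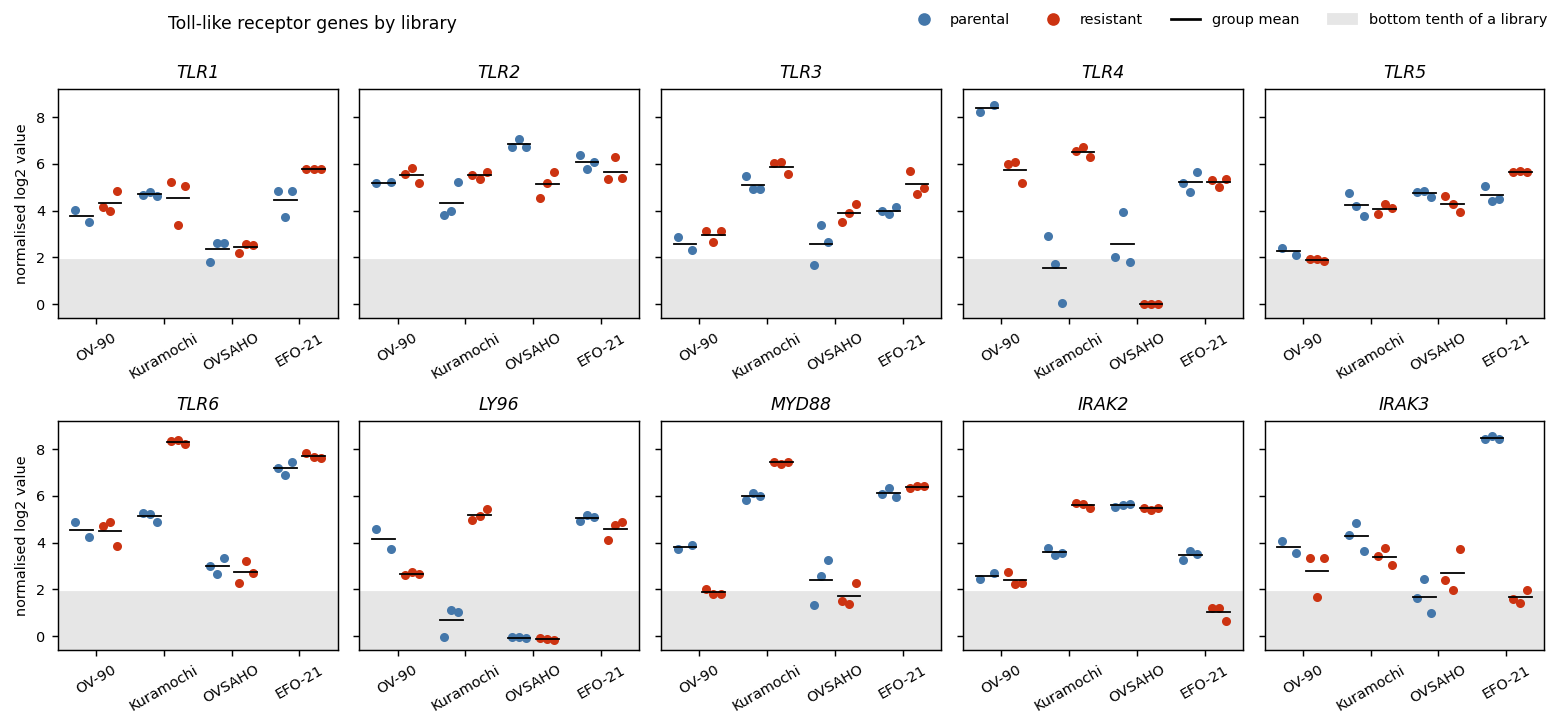
Normalised log2 value (vertical axis) of each gene in each of the 23 libraries, by line, with parental libraries in blue and resistant libraries in red, each point 1 library and each bar a group mean. The grey band ends at 1.87, the highest 10th percentile of any library. Resistant Kuramochi TLR6 sits at 8.23 to 8.38 above all other groups, and parental EFO-21 IRAK3 at 8.42 to 8.55 falls into or next to the band in the resistant libraries.

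The first comparison asked how the parental lines differed before any selection. No line was high or low for the whole set of genes, and each had its own leading receptor. By group mean, parental OV-90 had the highest TLR4, parental OVSAHO the highest TLR2 and IRAK2, parental EFO-21 the highest TLR6 and IRAK3, and parental Kuramochi the highest TLR3. A difference was called where limma's test over all genes gave a Benjamini-Hochberg adjusted p below 0.05 and the fold was at least 2. Between OV-90 and Kuramochi 6 of the 10 genes were called, against 47.0% of all genes. The other pairs had 9 for OV-90 and OVSAHO (48.1% of all genes), 6 for OV-90 and EFO-21 (50.2%), 7 for Kuramochi and OVSAHO (37.6%), 6 for Kuramochi and EFO-21 (41.3%) and 8 for OVSAHO and EFO-21 (44.2%). These made 42 of 60 differences in all.

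Among the lipoprotein receptors, TLR2 was at 6.74, 7.07 and 6.73 in parental OVSAHO, 6.36, 5.80 and 6.10 in EFO-21, 5.18 and 5.22 in OV-90, and 3.82, 3.97 and 5.24 in Kuramochi. OVSAHO lay above OV-90 and Kuramochi, and the neighbours in this order did not differ beyond the threshold (adjusted p from limma between 0.0509 and 0.0626). Kuramochi library 6 stood above its other 2 libraries. TLR6, the partner of TLR2 for diacylated lipoproteins, was at 7.19, 6.89 and 7.44 in EFO-21, 5.26, 5.23 and 4.90 in Kuramochi, 4.87 and 4.25 in OV-90, and 3.00, 2.66 and 3.36 in OVSAHO. All pairs of lines differed in TLR6 except Kuramochi and OV-90 (limma adjusted p = 0.0822), and OVSAHO, which had the most TLR2, had the least TLR6. TLR1, the other partner, was lowest in OVSAHO, with 1 of 3 libraries at the bottom and a mean of 2.34 ± 0.48 (SD, n = 3), and was between 3.75 and 4.70 on average in the other 3 lines, which did not differ beyond the threshold.

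TLR4 had the widest range of group means among the receptors in the parental lines, from 1.54 to 8.38. It was at 8.23 and 8.54 in OV-90, 5.18, 4.81 and 5.63 in EFO-21, 2.03, 3.92 and 1.79 in OVSAHO, and 2.90, 1.70 and 0.03 in Kuramochi. OV-90 lay above EFO-21 by 3.18 ± 0.80 (log2, SE; limma adjusted p = 0.00489), EFO-21 lay above both others, and OVSAHO and Kuramochi, with 3 of their 6 libraries at the bottom between them, overlapped. LY96, whose product lets TLR4 bind lipopolysaccharide, was at 4.93, 5.18 and 5.08 in EFO-21 and 4.59 and 3.72 in OV-90. It was at the bottom in all 3 libraries of Kuramochi (-0.06 to 1.10) and of OVSAHO (-0.08 to -0.05). The lines with the lower TLR4 were thus the lines in which LY96 was not measurable.

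The sensor of double-stranded RNA, TLR3, was at 5.48, 4.93 and 4.93 in Kuramochi, 3.97, 3.84 and 4.16 in EFO-21, 2.85 and 2.31 in OV-90, and 1.67, 3.38 and 2.64 in OVSAHO. Kuramochi lay above every other line, EFO-21 above OV-90 and OVSAHO, and the last pair overlapped (difference 0.01 ± 0.44). TLR5 was lowest in OV-90, at 2.39 and 2.11, and averaged 4.74 in OVSAHO, 4.66 in EFO-21 and 4.25 in Kuramochi, which overlapped one another.

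MYD88 was at 6.07, 6.34 and 5.97 in EFO-21, 5.82, 6.12 and 6.0 in Kuramochi, 3.73 and 3.91 in OV-90, and 1.34, 2.56 and 3.24 in OVSAHO. EFO-21 and Kuramochi overlapped, both lay above OV-90 (limma adjusted p = 0.00078 and 0.00127), and OV-90 lay above OVSAHO by 1.44 ± 0.43. IRAK2 had another order, with 5.53 to 5.67 in OVSAHO, 3.46 to 3.79 in Kuramochi, 3.24 to 3.66 in EFO-21, and 2.44 and 2.70 in OV-90, and only Kuramochi and EFO-21 overlapped. IRAK3 was at 8.42, 8.55 and 8.42 in EFO-21, 4.65 ± 0.42 above OV-90 and 4.20 ± 0.38 above Kuramochi. It was at the bottom in 2 of 3 OVSAHO libraries, where it averaged 1.68 ± 0.73 (SD, n = 3).

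The second comparison asked what differed in the resistant derivative of each line, and the answer was different in every line. Of the 10 genes, 5 were called in Kuramochi and all of these were higher. In OV-90 3 and in OVSAHO 2 were called, all lower, and EFO-21 had 2 that were higher and 2 that were lower. TLR4 was called in 3 lines, higher in 1 and lower in 2. The share of all genes called was 22.5% in Kuramochi, 16.1% in OV-90, 7.76% in OVSAHO and 14.3% in EFO-21. In the direction taken by the called members alone, that share was 11.8% higher in Kuramochi, 6.56% lower in OV-90 and 3.83% lower in OVSAHO. The median log2 change of the 10 genes was 1.30 in Kuramochi, -0.25 in OV-90, -0.21 in OVSAHO and 0.13 in EFO-21, beside -0.02, -0.06, 0.00 and 0.01 over all genes.

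**Figure D2:**
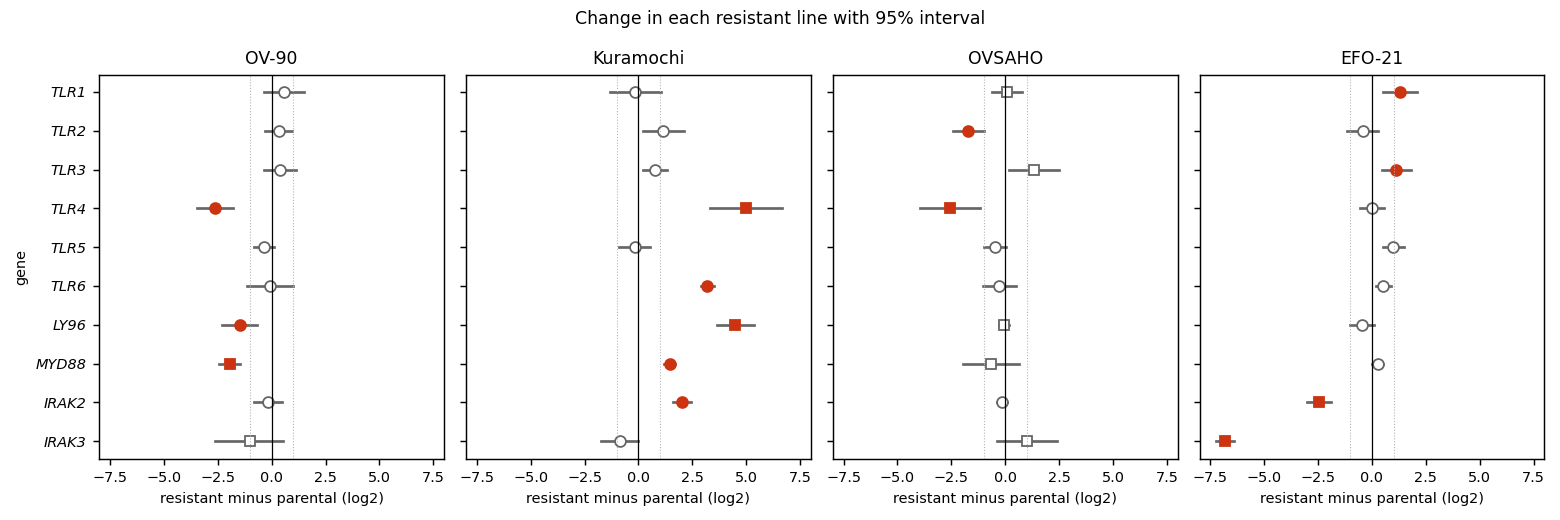
Resistant minus parental difference (log2, horizontal axis) of each gene in each line, with its 95% interval from limma. Filled symbols were called, squares have at least 1 library at the bottom, and dotted lines mark a 2-fold change. Kuramochi has 5 filled symbols to the right, OV-90 3 and OVSAHO 2 to the left, and EFO-21 2 on each side.

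In resistant Kuramochi, the genes of both parts of the lipopolysaccharide receptor were higher, with MYD88 and IRAK2. TLR4 was at 6.57, 6.71 and 6.28 in the resistant libraries against 2.90, 1.70 and 0.03 in the parental ones, which did not overlap. The difference was 4.98 ± 0.69 (limma adjusted p = 0.00172), and since 2 parental libraries were at the bottom it is not a measured fold. LY96 went from the bottom of all 3 parental libraries to 4.98, 5.12 and 5.45 (difference 4.50 ± 0.36, adjusted p = 0.000189 from limma). MYD88 went from 5.82, 6.12 and 6.0 to 7.47, 7.37 and 7.45, a 2.73-fold rise (limma adjusted p = 0.000134). IRAK2 went from 3.79, 3.46 and 3.54 to 5.68, 5.66 and 5.49, a 4.04-fold rise (limma adjusted p = 0.000232). CD14, which passes lipopolysaccharide to the receptor, was at a mean of 5.95 in parental and 6.45 in resistant cells and did not pass the test (limma adjusted p = 0.120).

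TLR6 had the smallest adjusted p of the 10 genes in this line. It was at 5.26, 5.23 and 4.90 in parental and 8.37, 8.38 and 8.23 in resistant Kuramochi, a 9.19-fold rise (log2 3.20 ± 0.12, limma adjusted p = 1.6e-05). TLR1, whose main transcript shares an identical stretch with that of TLR6, was at 4.68, 4.80 and 4.61 in parental and 5.21, 3.39 and 5.06 in resistant cells. Resistant library 17 lay below the other 5, and there was no call. TLR2, the partner of TLR1 and TLR6, was at 3.82, 3.97 and 5.24 and then 5.53, 5.34 and 5.66. Its groups did not overlap and its difference of 1.16 ± 0.39 just missed the threshold (adjusted p = 0.0507 from limma), and without parental library 6 it was 1.61 with an adjusted p of 0.00285 in limma. It was also called in a single fit of all 23 libraries (limma adjusted p = 0.00704) and after a filter at the 25th percentile (0.0351). Parental library 6 also had the highest summed linear level of 13 myeloid and lymphoid marker genes among the parental Kuramochi libraries, 159 against 56.0 and 64.2. It had the lowest TLR4 (0.03), TLR5 (3.77) and TLR6 (4.90) of these libraries. The part of such cells or RNA in the result was not tested. TLR3 was 1.70-fold higher (limma adjusted p = 0.0319), under the 2-fold line, and TLR5 and IRAK3 were not called.

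In resistant OV-90, the 2 parts of the lipopolysaccharide receptor and MYD88 fell. TLR4 was at 8.23 and 8.54 in the 2 parental libraries and 5.98, 6.08 and 5.16 in the resistant ones, a 6.26-fold fall (log2 -2.65 ± 0.32, limma adjusted p = 0.0130), which left it below the library median in 2 of 3 libraries. LY96 went from 4.59 and 3.72 to 2.60, 2.73 and 2.66 (-1.49 ± 0.32, limma adjusted p = 0.0288). MYD88 went from 3.73 and 3.91 to 2.00, 1.80 and 1.82, with library 14 at the bottom and the others next to it (-1.94 ± 0.19, limma adjusted p = 0.00946). With so few libraries these calls were fragile. Without resistant library 13 or 14 none of the 3 was called (limma adjusted p from 0.0528 to 0.104), and without library 15 only TLR4 was, although the differences themselves stayed between -2.82 and -1.06 over all alternatives. The other 7 genes were not called, including TLR2 (5.18 and 5.22, then 5.58, 5.81 and 5.16) and IRAK3 (4.06 and 3.57, then 3.33, 1.68 and 3.32).

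In resistant OVSAHO, TLR2 and TLR4 were lower. TLR2, for which this line stood highest before selection, was at 6.74, 7.07 and 6.73 in parental and 4.54, 5.20 and 5.67 in resistant libraries, a 3.27-fold fall (log2 -1.71 ± 0.29, limma adjusted p = 0.00769). TLR4 went from 2.03, 3.92 and 1.79 to between 0.01 and 0.02 in all 3 resistant libraries. That difference of -2.57 ± 0.57 (limma adjusted p = 0.0183) lay wholly among low values, was not called without any 1 of the resistant libraries 19, 20 and 21 (adjusted p from 0.0524 to 0.0588 in limma), and was -0.80 (adjusted p = 0.320 in limma) when values below the 10th percentile were raised to it. LY96 was at the bottom in all 6 OVSAHO libraries and MYD88 in 3 of 6. With TLR4 (4 libraries), IRAK3 (2), TLR1 (1) and TLR3 (1), 17 of the 60 values of these genes in this line were at the bottom. TLR3 was at 1.67, 3.38 and 2.64 and then 3.49, 3.90 and 4.30, a difference of 1.33 ± 0.47 that was not called (limma adjusted p = 0.0761) and was called in a single fit of all 23 libraries (0.00830), after a filter on low genes (0.0482) and without parental library 8 (0.0377, all from limma). IRAK2, for which parental OVSAHO was the highest line, was at 5.41 to 5.50 in the resistant cells (difference -0.14 ± 0.09).

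In this line, some markers of blood cells were lower as well. Of 13 measured myeloid and lymphoid markers, 6 were lower and 0 higher, beside 3.83% of all genes lower. The lower ones included the phagocyte enzyme gene LYZ (log2 change -3.56), the signalling adaptor TYROBP (-3.90) and the leukocyte phosphatase PTPRC (-2.88). The summed linear level of the 13 was 298 to 434 in parental and 114 to 139 in resistant libraries, and 2 to 5 and 8 to 9 of them were at the bottom. Parental library 8 had the highest sum, 434, and also the highest TLR4, 3.92. Among the resistant libraries the order was another, as library 19 had the highest sum, 139, and the lowest TLR2, 4.54. CSF1R, another of the 13 markers, was at the bottom in all 6 OVSAHO libraries (means 0.69 and 0.45). The part of these markers in the fall of TLR2 and TLR4 was not tested.

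In resistant EFO-21, IRAK2 and IRAK3 fell, and TLR1 and TLR3 were higher. IRAK3 was at 8.42, 8.55 and 8.42 in parental libraries and 1.57, 1.42 and 1.97 in resistant ones, with 2 of these at the bottom (log2 -6.81 ± 0.17, limma adjusted p = 1.17e-05). IRAK2 went from 3.24, 3.66 and 3.53 to 1.21, 1.20 and 0.64, the bottom of all 3 resistant libraries (-2.46 ± 0.22, limma adjusted p = 0.000434). Both calls held under every alternative that kept the gene, with IRAK2 between -2.58 and -1.63, the last when low values were raised, and IRAK3 between -6.97 and -6.58. TLR1 went from 4.85, 3.71 and 4.85 to 5.79, 5.80 and 5.76 (1.31 ± 0.32, limma adjusted p = 0.0182). Parental library 11 was low, and without it the difference was 0.93, while without resistant library 22, 23 or 24 the adjusted p in limma was 0.0521 to 0.0544. TLR3 went from 3.97, 3.84 and 4.16 to 5.68, 4.70 and 4.98 (1.13 ± 0.27, limma adjusted p = 0.0167), and it too lost its call without library 10 (adjusted p = 0.0503 in limma), 11 (0.0537) or 22 (difference 0.85). TLR5 was at 5.07, 4.40 and 4.50 and then 5.63, 5.70 and 5.63, a 1.99-fold difference just short of 2-fold (limma adjusted p = 0.0080), and TLR6 was 1.44-fold higher (limma adjusted p = 0.0264). TLR4 (5.18, 4.81 and 5.63, then 5.30, 5.01 and 5.34) had a difference of 0.01 with a 95% interval from -0.55 to 0.57, and MYD88 one of 0.26 from -0.01 to 0.53.

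The same gene thus had different changes in different lines, and this was tested directly by setting each line's change against the mean change of the other 3 lines. Of 40 such differences 19 were called. Kuramochi had 7 of 10, all above the other lines, against 25.8% of all genes. OV-90 had 4, all below (21.6% of all genes), OVSAHO 1 above and 3 below (10.7%), and EFO-21 1 above and 3 below (17.2%). For TLR4 the Kuramochi change lay 6.71 ± 0.64 above the rest, and those of OV-90 (-3.45) and OVSAHO (-3.35) below it. For IRAK2 Kuramochi lay 2.93 above and EFO-21 3.03 below, a called rise in one line and a called fall in the other. For IRAK3 the change in EFO-21 lay 6.51 below the other lines. For TLR3, whose point estimates were 0.39, 0.77, 1.33 and 1.13 in OV-90, Kuramochi, OVSAHO and EFO-21, no line differed from the others beyond the threshold. These 4 tests share libraries and are not independent.

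The rest of the pathway was read from lists of genes. Among 8 other adaptors and IRAK kinases, resistant Kuramochi had 4 higher and 1 lower, beside 11.8% and 10.6% of all genes. Their median change was 1.11 beside -0.02 over all genes. TIRAP, the adaptor that brings MYD88 to TLR2 and TLR4, was 5.69-fold higher (limma adjusted p = 0.000332), IRAK1 2.53-fold, TICAM1, the TRIF gene, 2.66-fold, and SARM1, which counters TRIF, 3.19-fold. In the other lines 1 or 2 of the 8 were called, beside 16.1% of all genes in OV-90, 7.76% in OVSAHO and 14.3% in EFO-21. PIK3AP1, an adaptor that links the receptors to PI3 kinase, was higher in OV-90 (log2 2.53) and OVSAHO (1.05) and lower in EFO-21 (-1.87), and TIRAP was called in no line but Kuramochi, at 0.59 in EFO-21 with a limma adjusted p of 0.00394 and under 2-fold. Of the other receptors, TLR7 and TLR9 had rows. In resistant EFO-21 TLR9, which senses DNA in endosomes, was 2.96-fold higher, at means of 3.42 and 4.99, and TLR7, which senses single-stranded RNA there, went from 0.63, with 2 libraries at the bottom, to 2.78. Neither was called in another line.

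Of 13 measured receptor partners, TRIL, a helper of TLR4 and TLR3, was at a mean of 8.35 in parental and 2.24 in resistant Kuramochi (log2 -6.11), opposite to TLR4 there, and also fell in OVSAHO (4.90 to 1.06). CD180, a receptor like TLR4 that restrains it, rose in Kuramochi (2.77, from the bottom) and fell in EFO-21 (7.34 to 5.54). In EFO-21 CD14 was 3.23-fold lower. Among 14 negative regulators 3 were higher in Kuramochi, beside 11.8% of all genes, and 2 higher and 2 lower in EFO-21, beside 7.11% and 7.15%. ATF3, a repressor of inflammatory genes, was higher in Kuramochi (log2 2.35), OVSAHO (1.28) and EFO-21 (2.06), and ZC3H12A, which degrades inflammatory messages, was lower in EFO-21 (-1.73). Of 32 downstream signalling genes 5, 5, 0 and 3 were called in OV-90, Kuramochi, OVSAHO and EFO-21, where 16.1%, 22.5%, 7.76% and 14.3% of all genes were. NFKB1 was 2.43-fold lower in EFO-21 and JUN 2.71-fold higher in Kuramochi.

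Genes that MYD88 and NF-kappaB are known to induce were called in both directions in Kuramochi and mostly lower in EFO-21. In resistant Kuramochi, where TLR4 and TLR6 rose, 5 of 23 measured outputs were higher and 4 lower, beside 11.8% and 10.6% of all genes. The median change of the outputs was 0.81 beside -0.02 over all genes. IL6 (4.84 to 7.09), BIRC3 and ICAM1 were among the higher, and the cytokine gene TNF (4.66 to 0.77, the bottom) and the chemokine gene CCL20 (6.66 to 2.50) among the lower. In resistant EFO-21 13 of 23 were lower, beside 7.15% of all genes, and 1 higher, with a median change of -1.04 beside 0.01. EREG, the gene of a growth factor, went from 13.66 to 5.11 and the chemokine gene CXCL6 from 11.26 to 7.42, and SOD2, CXCL8, CXCL1, ICAM1, BIRC3 and LIF were lower too. EREG was higher in the other 3 lines (log2 3.87, 3.68 and 2.75, each from at or near the bottom). In OV-90 3 outputs were higher and 5 lower, beside 9.50% and 6.56% of all genes. In OVSAHO 3 were higher and 0 lower, beside 3.93% and 3.83%. Of 10 outputs of TRIF and IRF3, Kuramochi had 1 higher (OASL) and 3 lower (CXCL10, RSAD2 and IFIT1), OV-90 1 lower and OVSAHO 3 lower, beside the same shares of all genes. EFO-21 had 2 higher, MX1 (2.70-fold) and ISG15 (2.15-fold), beside 7.11% of all genes.

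**Figure D3:**
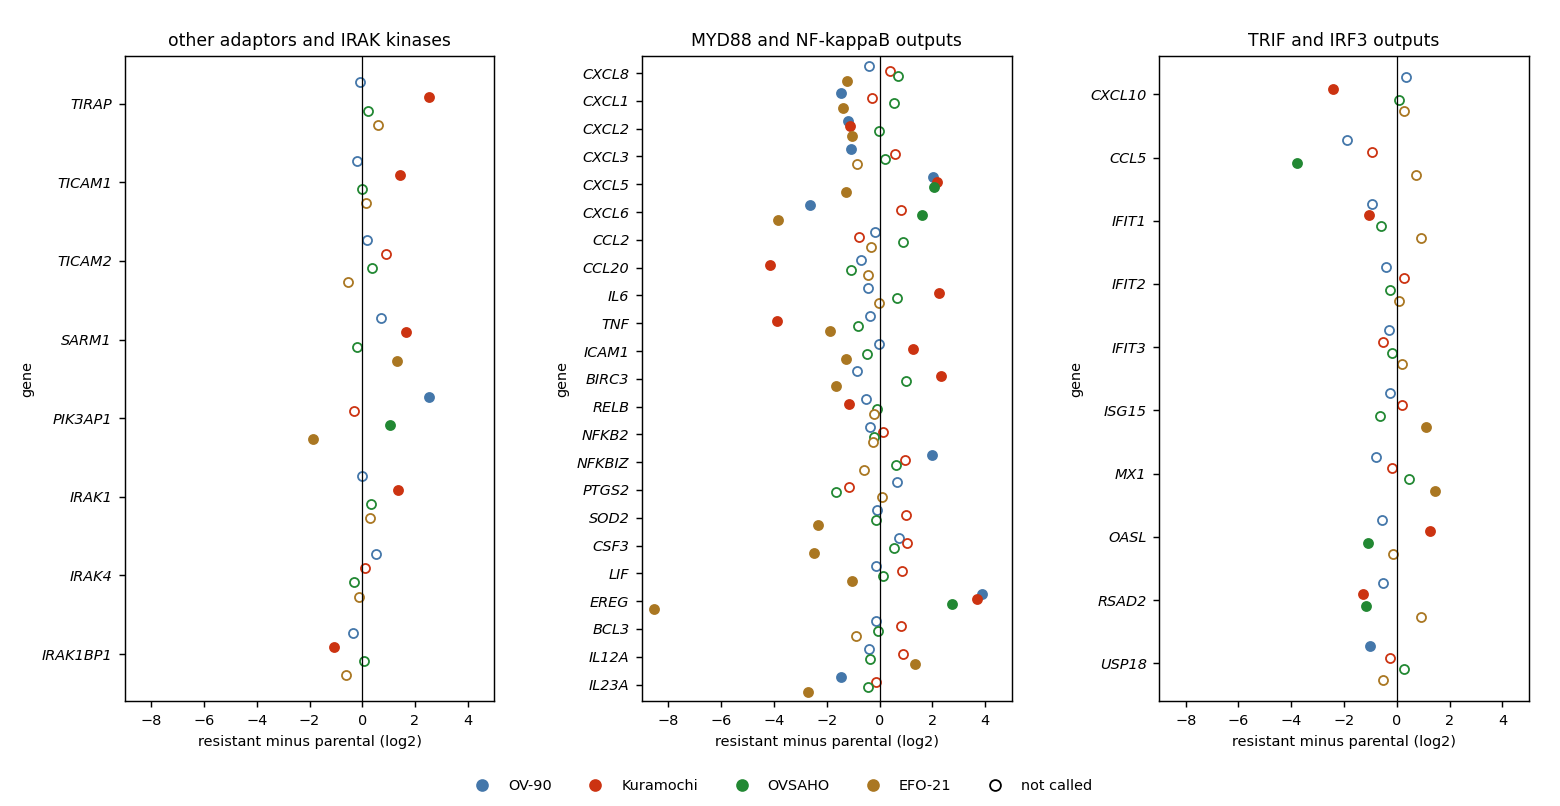
Resistant minus parental difference (log2, horizontal axis) of the other adaptor and IRAK genes, of MYD88 and NF-kappaB outputs and of TRIF and IRF3 outputs, 1 colour per line, filled where called. EFO-21 points lie to the left for most MYD88 outputs, with EREG at -8.55, while Kuramochi points lie on both sides.

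MYD88 also serves the interleukin-1 receptor family. In resistant Kuramochi the receptor gene IL1R1 fell from 7.59 to 4.0, while IL1B (1.73 to 5.51) and IL1RL1 (1.06 to 5.47), the receptor of interleukin-33, rose from at or near the bottom. In resistant EFO-21 IL1R1 fell from 4.99 to the bottom (1.56), IL1B was 2.72-fold lower and IL33 4.20-fold higher, and IL33 was also higher in Kuramochi (log2 1.81) and OVSAHO (1.58). In OVSAHO the receptor antagonist gene IL1RN fell from 5.0 to the bottom (1.72). Of 18 genes of endogenous ligands, 2 were higher and 0 lower in OV-90 (9.50% and 6.56% of all genes) and 4 and 2 in Kuramochi (11.8% and 10.6%). There were 2 and 2 in OVSAHO (3.93% and 3.83%) and 1 and 5 in EFO-21 (7.11% and 7.15%). The fibronectin gene FN1 was higher in all 4 lines (log2 1.78 in OV-90, 2.78 in Kuramochi, 1.53 in OVSAHO and 1.07 in EFO-21). The proteoglycan gene BGN fell in Kuramochi (6.53 to 1.49), while VCAN rose in Kuramochi (log2 3.25) and OV-90 (1.97) and DCN in OVSAHO (4.22). SAA1 (10.70 to 6.12) and S100A8 (5.74 to the bottom) fell in EFO-21, as S100A8 did in OVSAHO (log2 -4.02).

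Markers of the cells themselves moved as well. Of 12 epithelial ovarian cancer markers, 8 were lower and 0 higher in resistant Kuramochi, beside 10.6% of all genes lower there. The summed linear level of the 12 was 12350 to 14520 in parental and 4716 to 4828 in resistant libraries, and none of them was at the bottom of a parental library. In OVSAHO 6 were lower and 0 higher (17480 to 17760, then 6749 to 7383), beside 3.83% of all genes lower. In EFO-21 2 were higher, MSLN (log2 2.1) and CDH1 (1.39), beside 7.11% of all genes, and 0 lower, with a median change of -0.46. The summed level there was 15330 to 16090 in parental and 11550 to 11610 in resistant libraries. OV-90 had 0 called, although its summed level was also lower (20950 to 24280, then 16220 to 17050). EPCAM, an epithelial adhesion gene, had a log2 change of -3.78 in Kuramochi and -3.01 in OVSAHO. OV-90 had the highest levels of the 13 myeloid and lymphoid markers in both forms (summed 3991 to 5747 parental, 6005 to 6219 resistant), with LYZ at means of 12.06 and 12.43 and CSF1R at 6.39 and 6.65. In the resistant OV-90 libraries SPI1, the gene of the myeloid factor PU.1, was at the bottom (0.06 to 0.07, against 2.90 and 4.53), and FCER1G, a signalling chain of Fc receptors, was higher (5.70 to 7.08). Thus 1 of the 13 was higher and 1 lower there, beside 9.50% and 6.56% of all genes. Their median change was -0.74 beside -0.06 over all genes. In resistant Kuramochi CD68 (4.18 to 6.97) and ITGAM (1.01 to 3.71) were higher, while CSF1R was at the bottom in all 6 libraries and CD3E in all 3 resistant ones. There 2 of the 13 were higher and 1 lower, beside 11.8% and 10.6% of all genes. In EFO-21 the summed level was 603 to 645 and then 1102 to 1196. Of the 13, 1 was higher and 1 lower, beside 7.11% and 7.15% of all genes, and their median change was -0.03. CD68 was the higher one (8.45 to 9.72), LYZ fell from 2.08 to 0.32, the bottom of all 3 resistant libraries, and CSF1R was at the bottom throughout. Of 10 fibroblast and endothelial markers, 3 were higher and 5 lower in Kuramochi, beside 11.8% and 10.6% of all genes. There were 2 higher and 3 lower in OVSAHO (3.93% and 3.83% of all genes), 1 and 1 in EFO-21 (7.11% and 7.15%), and 1 lower in OV-90 (6.56%). The part of these markers in the changes of the receptor genes was not tested. In bulk RNA, fewer cells expressing a gene and less RNA of it per cell cannot be told apart.

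The genes around each called member were compared with it, to see whether a whole region had moved. The shares of all genes called higher and lower were 11.8% and 10.6% in Kuramochi and 9.50% and 6.56% in OV-90. They were 3.93% and 3.83% in OVSAHO and 7.11% and 7.15% in EFO-21. Within 1 Mb of TLR6, 6 of 20 measured genes were higher in resistant Kuramochi and 0 lower, beside 11.8% of all genes higher there, with a median change of 0.55. TBC1D1 (1.92) and FAM114A1 (1.79) had the largest rises there, and TLR1, which overlaps TLR6, had -0.14. Around MYD88 in Kuramochi, 2 of 23 were higher and 1 lower (median 0.38). Around IRAK2 in Kuramochi, 4 of 37 were higher, among them HRH1 (3.36) and GHRL (2.1) beside 2.01 for IRAK2, and 1 was lower, ATP2B2 (-3.18). In EFO-21, 1 of 12 genes within 1 Mb of IRAK3 was lower, GRIP1 (-2.54), and the median was -0.53. HELB (-0.72), TMBIM4 (-0.60) and LLPH (-0.44) next to IRAK3 were under 2-fold. Around IRAK2 in that line 2 were higher and 3 lower of 37, with a median of 0.03. Around MYD88 in OV-90, 1 of 23 was higher and 4 lower (median -0.29). Around LY96 in Kuramochi, 4 of 15 were higher and 1 lower, SBSPON (-1.53), with a median of 0.12. Among the higher were CRISPLD1 (7.14, beside 4.5 for LY96) and JPH1 (2.59). In OV-90 2 of the 15 were higher and 1 lower (median 0.04). Around TLR2 in OVSAHO 1 of 16 was higher and 0 lower, around TLR3 in EFO-21 0 of 17 were higher and 2 lower, and around TLR1 in EFO-21 none of 20 was called. TLR4 has only 2 measured neighbours. ASTN2 had -1.91 in OV-90, where TLR4 fell, and was not called in Kuramochi (-0.62) or OVSAHO (0.05).

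**Figure D4:**
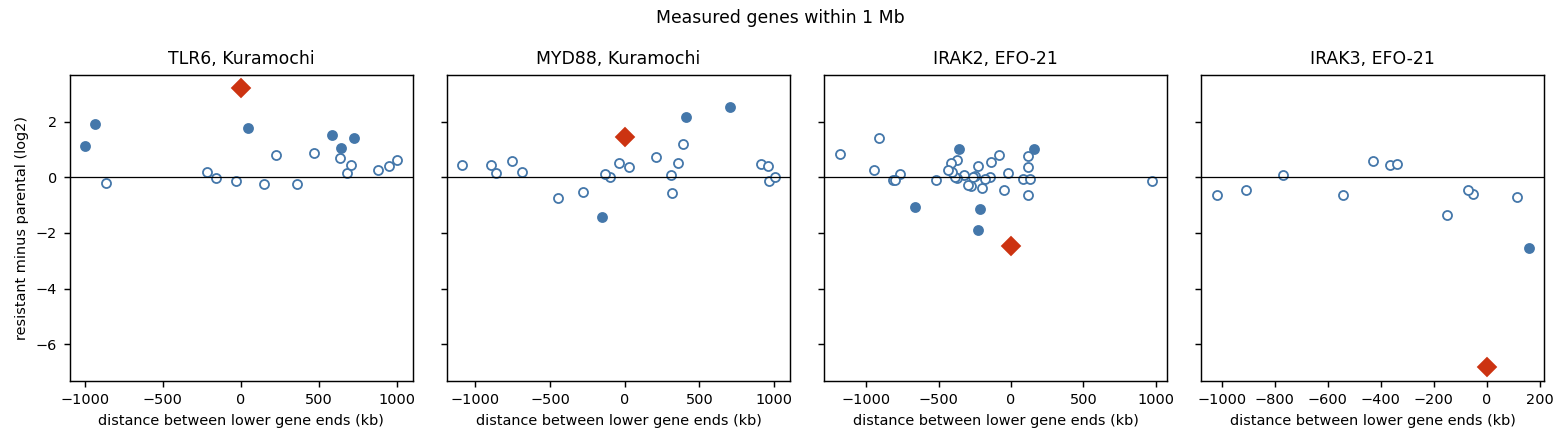
Resistant minus parental difference (log2, vertical axis) of the measured genes within 1 Mb of a called gene (red diamond at 0) against the distance between the lower ends of the genes (kb), filled where called. IRAK3 at -6.81 in EFO-21 lies far below its neighbours, of which the lowest, GRIP1, is at -2.54, while 6 neighbours of TLR6 in Kuramochi are higher.

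Across the 8 group means, genes with a pattern like that of a called member were found for those that in at least 1 group exceeded the median of the mean values of all genes. For TLR6 they were SRPRA (Pearson's r = 0.981), GADD45B (0.980) and CPQ (0.980), for MYD88 MRPL32 (0.984), BTN3A2 (0.983) and DES (0.980), for TLR3 INAFM2 (0.968), LOC100996294 (0.967) and PMS1 (0.967), for TLR4 STX4 (0.964), ANKRD55 (0.963) and JPX (0.958), and for IRAK3 LYRM2 (0.903), ZC3H12A (0.895) and TRHDE (0.886). With 8 points over 21658 genes these describe the pattern only. TLR2 had the least close companions, the highest r of a named gene being 0.858 for ZKSCAN5 and 0.814 for FGFR2.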

How the data were processed

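The authors deposited 1 table of log2 values, quantile normalised, for 21658 genes in 23 libraries. Per the labels and the study's methods, poly(A) RNA was sequenced from stranded libraries as paired 150-base reads, aligned with GSNP to GRCh37 (hg19), and exons with few reads in most samples were dropped before a robust linear model joined exon and junction values into 1 value per gene. The aligner's version is not given in the sources used here. Quantile normalisation gives every library the same distribution, so values are relative to the other genes of a library, and depth and counting error are unknown. Columns were matched to groups by their headings, which carry no replicate number. No columns of other samples were used.

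limma 3.58.1 in R 4.3.3 (lmFit and eBayes with a trend) was run on all genes within each line, on the 11 parental libraries for the 6 pairs of lines, and on all 8 groups for each line's change against the mean of the other 3. A gene was called at a Benjamini-Hochberg adjusted p below 0.05 and a change of at least 2-fold. Values are means, ± is the SE of a difference unless named SD, and intervals are 95%. An exact permutation test of 3 against 3 libraries cannot go below 0.1 two-sided. The p-values measure the spread between libraries labelled as biological replicates of 1 derivative. The procedure was tested on simulated normal values with added differences. Those values had no lower limit, so that test says little of genes at the bottom. Genes were named by rule: all 10 members, up to 3 called genes per list and line whose groups do not overlap and whose higher mean is above the bottom, the likeness genes, the called members' neighbours within 1 Mb, and TIRAP, TLR7, TLR9, IRAK1 and EREG. CD14, IL6, BIRC3, ICAM1, SOD2, CXCL8, CXCL1, LIF, IFIT1, CSF1R and CD3E, and the values of some named genes in other lines, were added after values were seen. The members and gene lists were chosen with earlier results of these data known, so no list is independent evidence. Positions are from GENCODE (v44, lifted to GRCh37), and promoters from RefSeq (GRCh38.p14). TLR1 had no promoter entry used here, and chromosome 8, which holds LY96, was left out of the promoter search. Alternatives are a single fit, no trend, a filter at the 25th percentile, recentring, other fold thresholds, raising low values, and leaving out each library.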

Additional observations from a re-analysis of the deposited data

Results flagged for a closer look

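Each result here was picked out because a line's change between resistant and parental cells differed from the mean change of the other 3 lines in limma (adjusted p below 0.05 over all genes, and at least 2-fold). For TLR2 the change in Kuramochi lay 1.77 above the others on the log2 scale and that in OVSAHO -2.06 from them. For TLR4 the values were 6.71 in Kuramochi, -3.45 in OV-90 and -3.35 in OVSAHO. TLR4 was at the bottom in 2 parental Kuramochi, 1 parental OVSAHO and 3 resistant OVSAHO libraries, which limits the size of these values, and the OVSAHO value was -1.38 (limma adjusted p = 0.0389) when low values were raised to the 10th percentile. TLR5 in EFO-21 lay 1.33 above, although its own change was just under 2-fold. TLR6 lay 3.14 above in Kuramochi, and at -1.22 in OV-90 and -1.49 in OVSAHO, where its own changes were -0.07 and -0.27. The OV-90 value was not called without library 2 or 15 (-0.91 in both).

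LY96 lay 5.18 above the others in Kuramochi, and at -2.82 in OV-90 and -1.45 in EFO-21. MYD88 lay 2.23 above in Kuramochi and at -2.29 in OV-90. IRAK2 lay 2.93 above in Kuramochi and at -3.03 in EFO-21. IRAK3 lay at -6.51 in EFO-21, and so at 3.90 in OVSAHO and 1.42 in Kuramochi, whose own changes of 0.99 and -0.87 were not called. The Kuramochi value of IRAK3 lost its call in 10 of the fits that left out 1 library (limma adjusted p up to 0.124), named by number as 2, 4, 6, 8, 11, 16, 17, 19, 20 and 23. A line can differ from the mean of the others because 1 of the others moved, and each line's own change stands in the report.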

How the results depend on the processing

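No paired analysis was possible because the column headings carry no replicate numbers. The number of these genes called was 0 to 3 in OV-90 without 1 library each (0 without library 13 or 14, 1 without 15), 1 to 3 in OVSAHO (1 without 19, 20 or 21), 2 to 4 in EFO-21 (2 without 11) and 5 to 7 in Kuramochi. It was 40 to 43 of 60 between parental lines and 18 to 21 of 40 for changes against the other lines. With low values raised to the 10th percentile OVSAHO had 1. The filter at the 25th percentile removed LY96 and IRAK3 by its construction and left 33 of 60 and 13 of 40. Where a parental OV-90 library was left out, the other one was assumed to vary like the other groups. Of 2401 values of single genes under alternatives, 2311 kept their direction and side of the threshold, 41 lost a call (40 of them with 1 library left out), 27 gained one and 22 changed sign, none of which had been called.

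Among parental lines, calls lost without 1 library were IRAK2 between OV-90 and Kuramochi (without 2 or 4), TLR1 (2) and MYD88 (3 or 7) between OV-90 and OVSAHO, and TLR3 between OV-90 and EFO-21 (3), Kuramochi and EFO-21 (4, 10 or 11) and OVSAHO and EFO-21 (7). The signs that changed without 1 library were those of TLR6 in OV-90 (-0.38 to 0.24), TLR1 in Kuramochi (-0.47 to 0.44) and OVSAHO (-0.19 to 0.23), TLR5 in Kuramochi (-0.42 to 0.08) and TLR4 in EFO-21 (-0.19 to 0.22). Against the other lines they were those of TLR1 (-0.10 to 0.41) and IRAK2 (-0.12 to 0.17) in OV-90, TLR5 in Kuramochi (-0.48 to 0.02) and TLR4 in EFO-21 (-0.14 to 0.34). With low values raised, IRAK2 against the other lines was -0.24 in OV-90 and -0.22 in OVSAHO, and TLR4 -0.30 in EFO-21. Depth is unknown, so a value at the bottom limits what can be said of a gene to its not being measurable there.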
